A study of Homo sapiens with 6 samples.

Results

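Glycolysis and hypoxia genes were described in A549 cells, a human lung adenocarcinoma line, as 39 of the 19990 gene symbols in the deposited table. The members were chosen by symbol, from knowledge of the pathway and with earlier results of these data known. They comprise 17 glycolytic enzymes, 4 transporters of glucose or lactate and 4 regulators of glycolytic flux. The rest are 4 hypoxia-inducible factors or oxygen sensors and 10 targets of those factors outside glycolysis. RNA sequencing was carried out in 6 libraries of wild-type A549 cells that had received siRNA: 2 with a non-targeting control siRNA, 2 with TIMM13 siRNA 1 and 2 with TIMM13 siRNA 2. The design text asks how TIMM13, a small chaperone of protein import into mitochondria, acts on cell proliferation. The groups were read from the sample titles, since the label for treatment gives cell differentiation for every sample. The labels do not say whether replicates 1 and 2 were separate cultures, so p-values speak only to the spread between these libraries, which may be technical. In bulk RNA, fewer cells with a transcript and less transcript per cell cannot be told apart.

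Glycolysis turns glucose into pyruvate in the cytosol. Glucose enters through SLC2A transporters, hexokinase traps it, phosphofructokinase commits it, and lactate dehydrogenase turns pyruvate into lactate, which leaves through SLC16A transporters. Hypoxia-inducible factors (HIF) are transcription factors whose alpha subunits are marked for destruction by the oxygen-dependent EGLN prolyl hydroxylases; when oxygen falls they raise glycolytic genes and genes of angiogenesis, pH control and mitophagy. HIF1A is regulated largely as a protein, so its mRNA does not measure its activity. Tumour lines such as A549 commonly run glycolysis in the presence of oxygen.

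The values are 1 normalized signal per gene, with its unit not stated, so read depth is unknown and no counting interval is given. Column totals were 205986 to 219820 in 5 libraries and 299936 in the library labelled siRNA 2 replicate 2. Across genes, which are not independent replicates, log2 values of that library correlated at 0.805 with siRNA 2 replicate 1, against 0.888 and 0.895 for the other replicate pairs. TIMM13, the targeted gene, stood at 2.09 and 2.56 in control, 2.09 and 1.83 with siRNA 1, and 1.82 and 2.31 with siRNA 2. Its groups overlapped (limma adjusted p = 0.653 and 0.666 against control), so directions below describe the libraries by their siRNA label, and a loss of TIMM13 mRNA was not seen in them. Of 5 epithelial markers, KRT8 stood at 703 to 1285 and KRT18 at 412 to 1367. The others were lower, with CDH1 at 14.6 to 34.8, KRT19 at 6.69 to 16.2 and EPCAM at 1.63 to 6.53. In the siRNA 2 libraries all 5 were above both control libraries, where 33.7% of all genes tested were. In the siRNA 1 libraries 4 of the 5 were, where 36.8% of all genes tested were. Whether this bears on the results below was not tested. Of 11 markers of leukocytes, fibroblasts and endothelium, 9 did not pass the filter on low values, and CD14 (1.80 to 6.99) and COL1A1 (0.757 to 4.24) passed it.

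The windows before the start sites of 3 members are shown as examples, chosen after their values and matches were seen. PFKFB4 was called higher with siRNA 2, and ALDOC and ENO1 were below both control libraries with siRNA 1 and above both with siRNA 2. Each gene has 1 start in the RefSeq promoter table (GRCh38.p14), all on the minus strand, and the 250 bases before it are written 5′ to 3′ in the direction of the gene. They lie at chr3:48556804-48557053, chr17:28576896-28577145 and chr1:8878687-8878936. Capitals mark ACGTG or GCGTG, the core of the hypoxia response element, on either strand (read as CACGT or CACGC when on the other strand).
PFKFB4: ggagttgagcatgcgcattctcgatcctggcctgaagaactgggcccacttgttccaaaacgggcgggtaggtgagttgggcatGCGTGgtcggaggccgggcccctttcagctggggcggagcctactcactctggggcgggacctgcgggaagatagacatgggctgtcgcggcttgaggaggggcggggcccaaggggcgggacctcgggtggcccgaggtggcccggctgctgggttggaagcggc
ALDOC: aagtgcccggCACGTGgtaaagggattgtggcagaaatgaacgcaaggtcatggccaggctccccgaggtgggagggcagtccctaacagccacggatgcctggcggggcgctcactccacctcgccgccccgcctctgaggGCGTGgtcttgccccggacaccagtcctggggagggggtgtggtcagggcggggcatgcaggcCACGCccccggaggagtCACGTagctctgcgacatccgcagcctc
ENO1: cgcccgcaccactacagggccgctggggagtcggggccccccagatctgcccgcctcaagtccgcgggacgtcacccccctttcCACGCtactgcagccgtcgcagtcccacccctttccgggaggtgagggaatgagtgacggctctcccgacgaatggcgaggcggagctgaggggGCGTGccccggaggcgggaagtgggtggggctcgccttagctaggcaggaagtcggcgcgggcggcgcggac
PFKFB4 held 1 match, ENO1 held 2 and ALDOC held 5, of which a pair overlap in the palindrome CACGTG, which is also the E-box read by MYC and related factors. Over all 35116 windows of this length in the table, 43.2% held a match, and 6.34% held CACGTG. Of the 60 windows of the 33 members in the table, 35 (58.3%) held a match and 13.3% held CACGTG. By gene, 27 of the 33 (81.8%) had a match in at least 1 window, against 47.4% of all 27305 genes, a share that also grows with the number of starts a gene has. Of the other members whose siRNA libraries lay, as deposited, on opposite sides of the control, EGLN3 held no match and ENO2 and EPAS1 held 1 each. SLC16A3, also of this pattern, held matches in 3 of its 5 windows. SLC2A3, which had the same pattern, has no window in the promoter table. A match is a run of letters and not a bound site.

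Of the 39 members, 37 reached a signal of 1 in 2 or more libraries and were tested. HK2, the hexokinase isozyme raised in many tumours, did not pass, with 0.167 and 0.182 in control, 0.176 and 0.348 with siRNA 1, and 1.34 and 0.886 with siRNA 2. ANKRD37, an ankyrin-repeat HIF target, stood at 0.118 to 1.27 and did not pass. With siRNA 1 against control, limma called 0 of the 37 at an adjusted p under 0.05 (10 at an unadjusted p under 0.05, where 20.5% of all genes were), and 1.63% of all 11486 genes tested were called, 0.705% higher and 0.923% lower. With siRNA 2 against control it called 2 of 37, 1 higher and 1 lower, where 3.0% of all genes were called, 1.24% higher and 1.76% lower (12 members at an unadjusted p under 0.05, where 25.7% of all genes were). Between the siRNAs it called 3 of 37, all lower with siRNA 1, where 3.27% of all genes were called, 1.91% higher and 1.37% lower (13 at an unadjusted p under 0.05, where 24.3% were). With so few calls, these counts are no result about the members as a set, and they rested on single libraries. Without siRNA 2 replicate 1 or replicate 2, more members were called in each comparison, and so were more of all genes tested. The rise is therefore no result about the members. Without any 1 of the other 4 libraries, no member and no other gene was called in any comparison. A group that loses a library keeps 1, which is assumed to vary like the others.

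HK1 and PFKFB4 were the members called with siRNA 2, and they went in opposite directions at the entry to glycolysis. HK1, the housekeeping hexokinase that docks on the outer membrane of mitochondria, stood at 32.4 and 35.3 in control, 21.4 and 16.8 with siRNA 1, and 6.87 and 8.81 with siRNA 2. The 3 groups did not overlap, with the siRNA 1 libraries between the others. It fell with siRNA 2, from a mean of 33.8 ± 2.04 to one of 7.84 ± 1.37 (SD of 2 libraries). The log2 fold change was −1.99 (SE 0.215, limma adjusted p = 0.0385). With siRNA 1 the log2 difference was −0.80 (SE 0.215, limma adjusted p = 0.140), and between the siRNAs it was 1.19 (adjusted p = 0.0633). HK1 (ENSG00000156515) lies on chromosome 10 at 69269984 to 69401884 of GRCh38, plus strand, with 18 annotated transcripts and 7 starts in the promoter table.

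PFKFB4, which makes and removes fructose 2,6-bisphosphate, the activator of phosphofructokinase, stood at 2.07 and 1.96 in control, 3.46 and 3.26 with siRNA 1, and 6.65 and 5.79 with siRNA 2. Again the 3 groups did not overlap, with siRNA 1 in the middle. It rose with siRNA 2, from a mean of 2.02 ± 0.0729 to one of 6.22 ± 0.609 (SD of 2 libraries). The log2 fold change was 1.26 (SE 0.157, limma adjusted p = 0.0397). With siRNA 1 the log2 difference was 0.53 (SE 0.157, limma adjusted p = 0.164). The gene (ENSG00000114268) lies on chromosome 3 at 48517684 to 48562015, minus strand. HK1 was called in 6 of 15 alternative settings and PFKFB4 in 4 of 14. PFKFB4 was lost with upper-quartile scaling (limma adjusted p = 0.102), and both were lost with equal column totals (0.0573 and 0.144), no filter (0.0501 each), library weights (0.126 and 0.127), only the compared groups in the fit (0.156 and 0.164) and a replicate block (0.130 each). Both calls were also lost without any 1 control or siRNA 1 library (adjusted p = 0.158 to 0.204 for HK1 and 0.164 to 0.234 for PFKFB4). Without siRNA 2 replicate 1 or 2 the log2 fold changes were −1.83 and −2.14 for HK1, and 1.17 and 1.34 for PFKFB4. These 2 fits count among the settings with a call. They take no spread from the siRNA 2 group, and many more of all genes were called in them. A call kept in them is therefore no check of it.

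**Figure D1:**
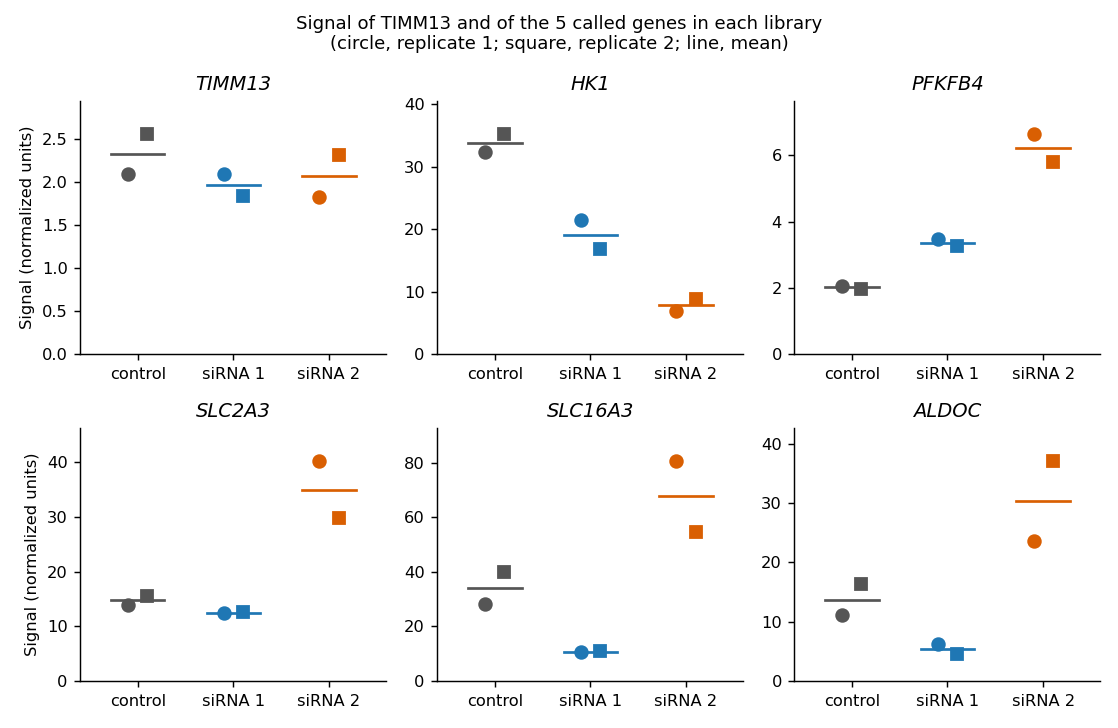
Signal per library (the authors' normalized units, linear axis from 0) of TIMM13 and of the 5 members called in any comparison; circles are replicate 1, squares replicate 2 and lines the group means. HK1 descends from 32.4 and 35.3 to 6.87 and 8.81, PFKFB4 ascends, and SLC2A3, SLC16A3 and ALDOC are lowest with siRNA 1 and highest with siRNA 2, while TIMM13 overlaps between groups.

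Of the 4 transporters, SLC2A3 and SLC16A3 were called between the siRNAs, and SLC2A1 and SLC16A1 were not. SLC2A3, the high-affinity glucose transporter GLUT3, stood at 13.9 and 15.6 in control, 12.5 and 12.5 with siRNA 1, and 40.3 and 29.8 with siRNA 2. The siRNA 1 libraries lay just under the controls and the siRNA 2 libraries well above them. It was lower with siRNA 1 than with siRNA 2 by a log2 difference of −1.40 (SE 0.210, limma adjusted p = 0.0483), and the difference from control was not called (1.18, SE 0.210, adjusted p = 0.0627). SLC2A14, a near-identical neighbouring copy on chromosome 12 that could share reads with it, stood at 0.102 to 0.568 in all libraries. SLC16A3, the lactate exporter MCT4 of glycolytic cells, stood at 28.2 and 40.1 in control, 10.5 and 10.9 with siRNA 1, and 80.8 and 54.6 with siRNA 2. As deposited, the 3 groups did not overlap. With equal column totals siRNA 2 replicate 2 lay between the control libraries, and siRNA 1 stayed below all others. Between the siRNAs the log2 difference of SLC16A3 was −2.53 (SE 0.284, limma adjusted p = 0.0365). Each siRNA against control was not called (−1.57, adjusted p = 0.0804, and 0.96, adjusted p = 0.133).

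SLC2A1, the widely used glucose transporter GLUT1, was among the steadiest members, at 52.0 and 55.2 in control, 56.1 and 53.7 with siRNA 1, and 50.9 and 47.8 with siRNA 2. Its siRNA 2 libraries lay just under both controls, where 25.9% of all genes did. SLC16A1, the lactate transporter MCT1, stood at 39.9 and 41.4, 34.7 and 34.5, and 42.3 and 28.7. Neither was called in any comparison.

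ALDOC, the brain-type aldolase that splits fructose 1,6-bisphosphate, was the third gene called between the siRNAs. Its signal was 11.1 and 16.4 in control, 6.18 and 4.53 with siRNA 1, and 23.5 and 37.1 with siRNA 2. The log2 difference was −2.28 (SE 0.334, limma adjusted p = 0.0470). SLC2A3 lies on chromosome 12 at 7919230 to 7936275 (minus strand), SLC16A3 on chromosome 17 at 82228397 to 82261129 (plus strand) and ALDOC on chromosome 17 at 28573115 to 28577264 (minus strand). SLC2A3 was called in 3, SLC16A3 in 6 and ALDOC in 3 of 15 alternative settings. None of the 3 calls was kept with upper-quartile scaling (adjusted p = 0.146, 0.0730 and 0.0602), with equal column totals (0.199, 0.0983 and 0.0732), or without any 1 control or siRNA 1 library (0.166 to 0.260, 0.134 to 0.206 and 0.138 to 0.239). Without siRNA 2 replicate 1 the 3 log2 differences were −1.19, −2.25 and −2.60, and without replicate 2 they were −1.61, −2.80 and −1.96. Calls in these fits are no check, since they take no spread from the siRNA 2 group.

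Of the other enzymes of the main path, none was called. GPI, which turns glucose 6-phosphate into fructose 6-phosphate, stood at 119 and 118 in control, 145 and 149 with siRNA 1, and 140 and 239 with siRNA 2, with every siRNA library above both controls. The phosphofructokinase subunits did not move alike. PFKL, the liver-type subunit, stood at 3.57 and 3.63 in control, 8.63 and 8.36 with siRNA 1, and 8.22 and 18.2 with siRNA 2 (log2 differences 1.05 and 1.53, limma adjusted p = 0.229 and 0.103). PFKM, the muscle-type subunit, stood at 9.13 and 8.17, 4.93 and 6.12, and 5.62 and 14.5. PFKP, the platelet-type subunit, stood at 33.8 and 32.8, 28.2 and 12.2, and 12.2 and 90.9, so its siRNA 2 libraries lay on both sides of the control.

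Below the aldolase step, TPI1, which interconverts the triose phosphates, stood at 317 and 329 in control, 302 and 336 with siRNA 1, and 348 and 537 with siRNA 2. GAPDH, which oxidises glyceraldehyde 3-phosphate, stood at 1805 and 1886, 1855 and 1816, and 2156 and 3646. In both genes siRNA 1 overlapped the control and the siRNA 2 libraries were above it, with replicate 2 the higher. GAPDH has 62 pseudogenes named after it in GENCODE 29, and 16 of the 39 members have at least 1, so reads shared with such copies make these levels uncertain. PGAM1, the phosphoglycerate mutase, stood at 276 and 293, 252 and 232, and 390 and 247. ENO1, the widely expressed enolase, stood at 584 and 655 in control, 498 and 454 with siRNA 1, and 768 and 1358 with siRNA 2 (log2 difference between the siRNAs −1.10, limma adjusted p = 0.135). ENO2, the neuronal enolase, stood at 26.1 and 27.7, 12.8 and 2.26, and 34.2 and 31.7 (−2.34 between the siRNAs, adjusted p = 0.152). As deposited, both enolases were under the controls in both siRNA 1 libraries and above them in both siRNA 2 libraries. With equal column totals this held for ENO1 only, since ENO2 in siRNA 2 replicate 2 then lay under both controls. PKM, the pyruvate kinase of most tumour cells, stood at 995 and 896, 934 and 1051, and 1302 and 1838 (0.71 with siRNA 2 against control, adjusted p = 0.161).

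**Figure D2:**
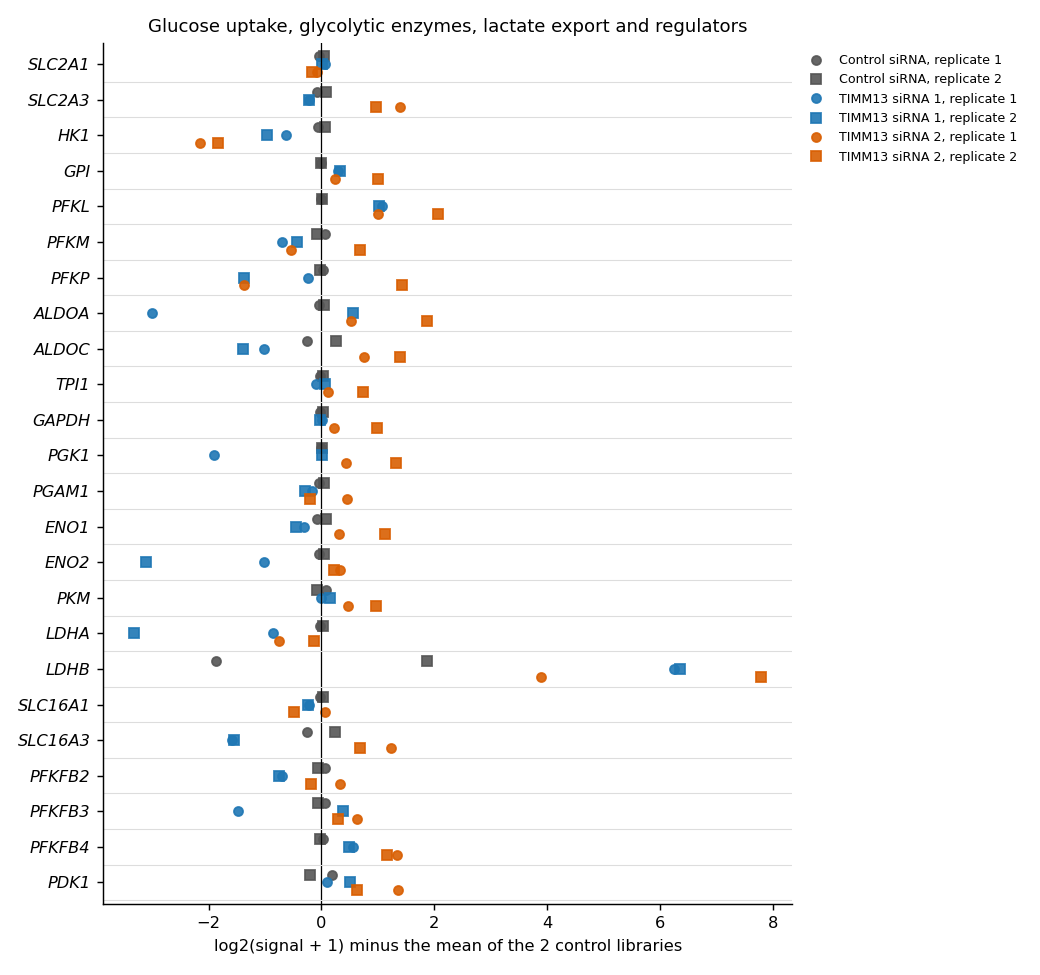
Each row is 1 member; points give log2(signal + 1) of each library minus the mean of the 2 control libraries, coloured by group, with circles for replicate 1 and squares for replicate 2. As deposited, most enzymes sit right of 0 in the siRNA 2 libraries, further right in replicate 2, whereas HK1 sits left of 0, and LDHB, LDHA, ALDOA, PGK1 and ENO2 show wide gaps within a group.

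Over the 16 enzymes tested, 14 had a positive and 2 a negative log2 difference with siRNA 2 (median 0.61, against 0.14 over all genes tested), and 11 had both siRNA 2 libraries above both controls, where 33.7% of all genes did. HK1 and LDHA had both below, where 25.9% of all genes did. With upper-quartile scaling or equal column totals the split was 11 and 5, the enzymes with a changed sign being PFKM, PFKP and PGAM1. Under both scalings 10 enzymes were above both controls, where 2690 (upper quartile) and 2650 (equal totals) of 11486 genes were. The median log2 difference from the control mean was 0.32 in siRNA 2 replicate 1 and 0.99 in replicate 2, against 0.07 and 0.17 over all genes. With siRNA 1, 4 enzymes had a positive and 12 a negative difference (median −0.47, against 0.05 over all genes). By library the medians were closer to 0, at −0.27 in siRNA 1 replicate 1 (4 enzymes above the control mean, 12 below) and −0.16 in replicate 2 (7 above, 9 below). Of the 16 enzymes, 8 had both libraries below both controls, where 31.1% of all genes did. GPI, PFKL and LDHB had both above, where 36.8% did. In the direct comparison, which uses no control library, 14 enzymes were lower and 2 higher with siRNA 1 than with siRNA 2 (median −0.64, against −0.10 over all genes). Both libraries of siRNA 1 were below both of siRNA 2 in 8 enzymes, where 30.8% of all genes were, and above both in 1, HK1, where 26.4% were. The comparisons against control share both control libraries.

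The 17 enzymes took 2.64% and 2.71% of the summed signal in the control libraries, 2.31% and 2.25% with siRNA 1, and 3.06% and 3.65% with siRNA 2. The groups did not overlap, and this share does not depend on the scale of a library. Group means were 2.67% ± 0.0477, 2.28% ± 0.0394 and 3.36% ± 0.416 (SD, n = 2). Without LDHA, LDHB and ALDOA, whose replicates were far apart (a choice made after their values were seen), the shares were 2.06% and 2.10%, 1.89% and 1.91%, and 2.59% and 2.78%. The sum adds signals whose unit is not stated, so genes of high signal weigh most in it. No test is given for a sum over chosen genes.

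**Figure D3:**
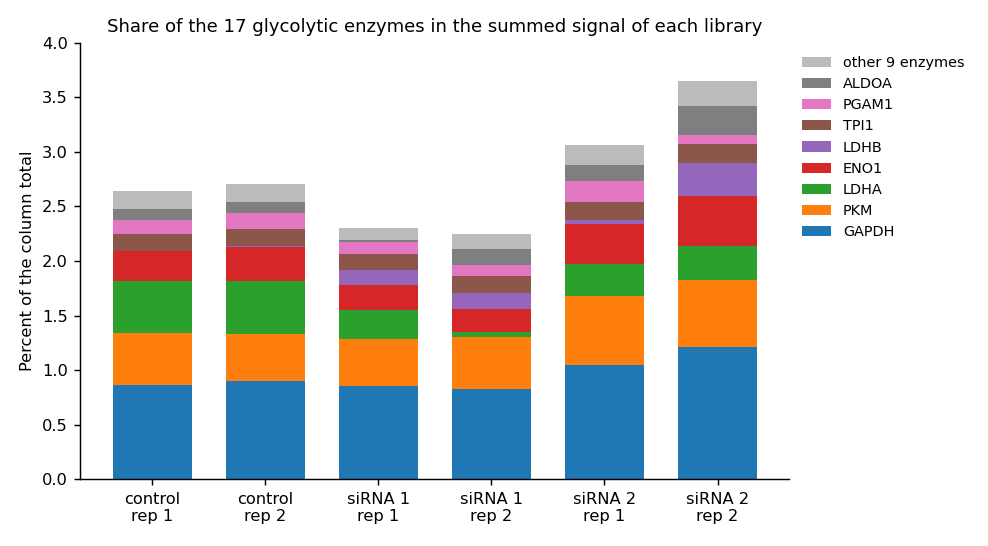
Stacked bars give the percent of each library's column total taken by the 17 glycolytic enzymes, with 8 shown by name and the other 9 together. The bars reach 2.64% and 2.71% in control, 2.31% and 2.25% with siRNA 1, and 3.06% and 3.65% with siRNA 2; LDHB is almost absent from the control bars.

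Both lactate dehydrogenase subunits had unstable values. LDHA, the subunit that favours lactate formation, stood at 1002 and 1032 in control, 563 and 102 with siRNA 1, and 601 and 930 with siRNA 2, with all 4 siRNA libraries under both controls. LDHB, the heart-type subunit, stood at 0.127 and 14.0 in control, 310 and 335 with siRNA 1, and 60.2 and 909 with siRNA 2. All 4 siRNA libraries were above both controls, but the control replicates differed 111-fold (adjusted p = 0.164 and 0.148), and the log2 differences of 6.29 and 5.84 had an SE of 1.82. ALDOA, the muscle-type aldolase, stood at 206 and 221, 25.7 and 316, and 307 and 781. PGK1, the phosphoglycerate kinase, stood at 104 and 106, 27.6 and 106, and 143 and 264. In ALDOA and PGK1 siRNA 1 replicate 1 stood alone and low, and in LDHA siRNA 1 replicate 2 did.

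Of the regulators of flux beside PFKFB4, PFKFB3, the tumour-associated isozyme, stood at 80.9 and 74.7 in control, 27.3 and 102 with siRNA 1, and 121 and 95.4 with siRNA 2. PFKFB2, the heart isozyme, stood at 7.31 and 6.68, 3.93 and 3.76, and 8.99 and 6.05, with siRNA 1 under both controls (log2 difference −0.72, SE 0.230, limma adjusted p = 0.185). PDK1, a kinase that shuts pyruvate dehydrogenase, stood at 1.25 and 0.719, 1.12 and 1.80, and 4.07 and 2.03 (0.99 with siRNA 2, adjusted p = 0.159). None of these 3 was called.

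All 4 factors and oxygen sensors of the HIF pathway had both siRNA 2 libraries below both controls, where 25.9% of all genes did, and none was called. This held for all 4 under both scalings, where 3614 (upper quartile) and 3417 (equal totals) of 11486 genes did. HIF1A, the oxygen-labile alpha subunit, had the closest replicates of all members, at 374 and 380 in control, 250 and 252 with siRNA 1, and 297 and 313 with siRNA 2. As deposited, the 3 groups did not overlap, and siRNA 1 was lowest (log2 difference −0.59, SE 0.156, limma adjusted p = 0.138). With equal column totals siRNA 2 replicate 2 was the lowest library, and the 2 siRNA groups overlapped. The difference of HIF1A with siRNA 1 stayed negative under every alternative setting. EPAS1, which encodes the related HIF-2 alpha, stood at 62.5 and 58.9, 72.8 and 68.3, and 50.8 and 39.3. EGLN3, a hydroxylase that is itself a HIF target, stood at 16.3 and 14.4, 20.1 and 22.6, and 11.4 and 8.72. For both genes siRNA 1 was above and siRNA 2 below both controls (0.65 and 1.03 between the siRNAs, adjusted p = 0.142 and 0.0730). EGLN1, the main oxygen-sensing hydroxylase, stood at 58.4 and 52.7, 57.5 and 56.7, and 8.33 and 29.4, so siRNA 2 was low and its replicates 3.53-fold apart (−1.75 against control, adjusted p = 0.167).

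The HIF targets outside glycolysis did not follow 1 pattern. VEGFA, the angiogenic growth factor, stood at 28.1 and 28.9 in control, 14.3 and 16.5 with siRNA 1, and 25.5 and 17.7 with siRNA 2, with all siRNA libraries under both controls (log2 difference −0.85 with siRNA 1, SE 0.231, limma adjusted p = 0.141). The 2 surface carbonic anhydrases, which handle acid, differed. CA9 stood at 3.85 and 3.46, 6.50 and 6.35, and 2.45 and 5.53, and CA12 at 189 and 185, 190 and 174, and 146 and 98.8. CA9 was above the controls with siRNA 1, and CA12 was below them with siRNA 2. The collagen prolyl hydroxylases P4HA1 and P4HA2 were above both controls in all 4 siRNA libraries. P4HA2 stood at 7.20 and 7.95, 10.9 and 10.4, and 13.8 and 23.9 (1.16 with siRNA 2, adjusted p = 0.105). P4HA1 stood at 3.11 and 3.48, 3.71 and 4.05, and 7.14 and 50.7.

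In each of the remaining targets, the replicates of at least 1 group were over 2-fold apart. BNIP3, a mitophagy receptor, stood at 69.6 and 72.0 in control, 59.7 and 18.6 with siRNA 1, and 35.2 and 81.2 with siRNA 2. Its relative BNIP3L stood at 81.3 and 82.3, 86.5 and 3.71, and 90.6 and 66.4, so siRNA 1 replicate 2 stood alone. ADM, the vasodilator peptide adrenomedullin, stood at 2.54 and 46.0, 1.46 and 1.68, and 37.7 and 41.2. The siRNA 1 libraries were close together and below all others, and only the control replicates were far apart. Between siRNA 1 and siRNA 2 ADM had a log2 difference of −3.98 (SE 1.26, limma adjusted p = 0.161), which was not called. NDRG1, a stress-responsive gene, stood at 0.137 and 6.78, 0.0471 and 1.31, and 0.0933 and 25.2, with replicate 2 the higher in each group. Over the 9 targets tested, 3 were positive and 6 negative with siRNA 1 (median −0.85), and 5 positive and 4 negative with siRNA 2 (median 0.03), against medians of 0.05 and 0.14 over all genes. The single libraries did not share these medians: they were 0.03 and −0.37 in siRNA 1 replicates 1 and 2, and −0.15 and 0.49 in siRNA 2 replicates 1 and 2. With upper-quartile scaling or equal column totals the siRNA 2 split was 4 and 5.

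**Figure D4:**
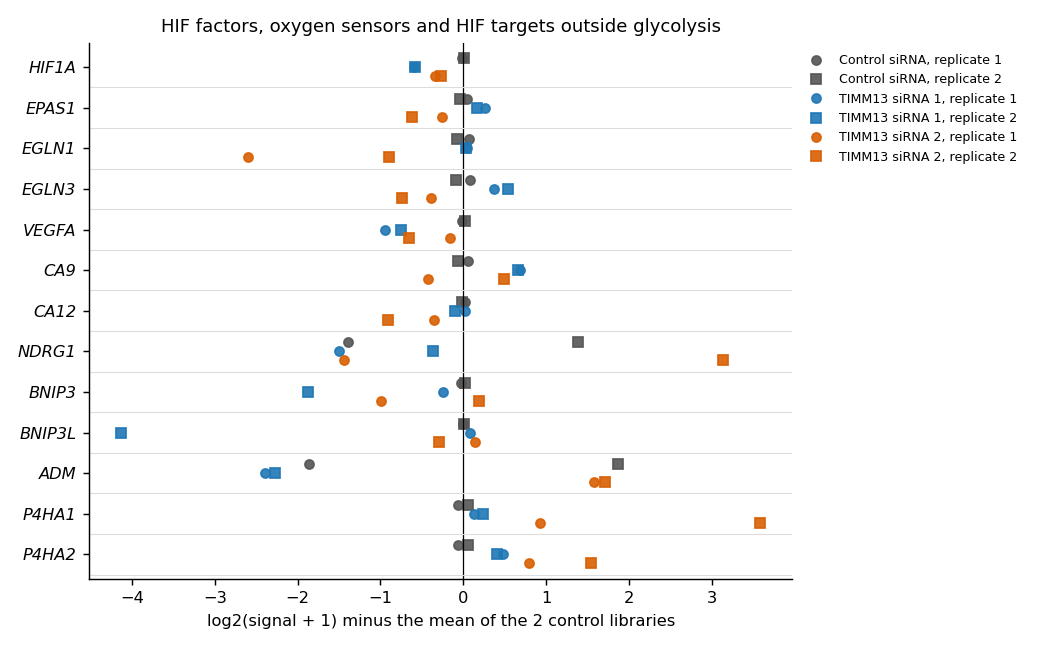
Rows are the 4 HIF factors or oxygen sensors and the 9 HIF targets tested outside glycolysis; points give log2(signal + 1) of each library minus the mean of the 2 control libraries. HIF1A is left of 0 in all 4 siRNA libraries, EPAS1, EGLN1 and EGLN3 are left of 0 with siRNA 2, and NDRG1, ADM, BNIP3L and P4HA1 show replicates far apart.

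The spread between replicates varied widely among members. Of the 37 tested, 22 (59.5%) had replicates less than 2-fold apart in all 3 groups on the log2(value + 1) scale, against 72.2% of all genes tested. Members over 2-fold apart numbered 3 in control (ADM, LDHB and NDRG1, 8.11%, against 7.86% of all genes), 9 with siRNA 1 (24.3%, against 7.09% of all genes) and 9 with siRNA 2 (24.3%, against 19.5%). The members have 2 to 33 annotated transcripts in GENCODE 29. How the transcripts of 1 gene were merged into its value is not stated in the sources, and whether such a gap is one of transcript or of level was not tested.

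**Figure D5:**
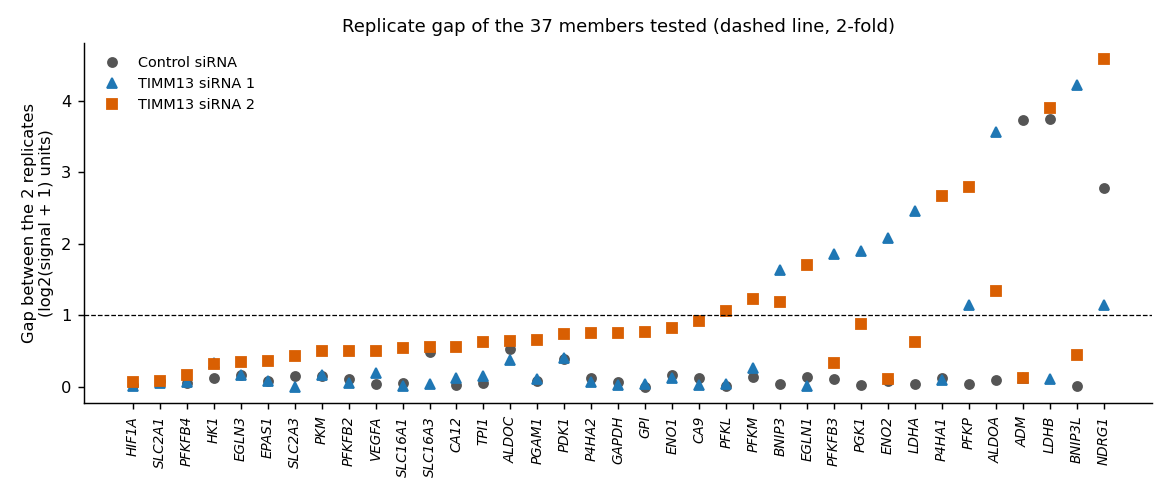
For each of the 37 members tested, points give the gap between the 2 replicates of a group in log2(signal + 1) units, ordered by the widest gap; the dashed line marks 2-fold. HIF1A, SLC2A1 and PFKFB4 are at the left with narrow gaps, and 15 members have at least 1 group above the line.

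Genes of the same pathways outside the 39 members were read from 5 lists. These were taken from textbook knowledge, but with earlier results of these data known. Of 25 other glycolytic isozymes and side enzymes, 10 were tested and 1 was called: G6PC3, a glucose 6-phosphatase of the endoplasmic reticulum. Its signal was 28.2 and 29.9 in control, 34.2 and 28.5 with siRNA 1, and 6.53 and 5.71 with siRNA 2, a fall with siRNA 2 of −2.08 on the log2 scale (SE 0.181, limma adjusted p = 0.0313; 0.00731 to 0.168 over 15 alternatives). Of 16 other sugar and monocarboxylate transporters, 9 were tested and 0 called in any comparison (limma, 2, 3 and 2 at an unadjusted p under 0.05 with siRNA 1, with siRNA 2 and between them). Of 14 genes of pyruvate entry into mitochondria, all were tested and 0 called (3, 1 and 4). PDK3, a kinase of pyruvate dehydrogenase, had the smallest p with siRNA 1, at 4.10 and 4.14 in control, 1.28 and 1.37 with siRNA 1, and 4.77 and 3.51 with siRNA 2 (adjusted p = 0.0687).

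Of 13 other HIF pathway factors, 12 were tested and 0 called (limma, 1, 2 and 4 at an unadjusted p under 0.05). ARNT, the constant partner of the alpha subunits, stood at 5.77 and 5.72 in control, 7.25 and 6.90 with siRNA 1, and 10.1 and 10.7 with siRNA 2 (0.76 with siRNA 2, adjusted p = 0.0768). HIF1AN, the asparagine hydroxylase that limits HIF activity, stood at 9.15 and 8.94, 4.74 and 4.02, and 6.66 and 5.30 (−0.90 with siRNA 1, adjusted p = 0.0981). Of 40 other HIF targets, 33 were tested. WSB1, a ubiquitin ligase component, rose with siRNA 2 from 18.3 and 16.6 to 45.7 and 45.2 (log2 fold change 1.34, SE 0.166, limma adjusted p = 0.0397; 0.0114 to 0.230 over 15 alternatives). TMEM45A, a transmembrane protein, fell with siRNA 1 from 1.72 and 1.68 to 0.124 and 0.141 (−1.26, SE 0.136, limma adjusted p = 0.0422; 0.00345 to 0.232 over 14 alternatives). Over these 33 targets the median log2 difference was −0.11 with siRNA 1 and 0.03 with siRNA 2, against 0.05 and 0.14 over all genes.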

How the data were processed

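Poly(A)-selected, strand-specific libraries were sequenced, per the labels' protocols. Trim Galore, STAR and featureCounts and the build hg38 are named, without versions, in the submitters' processing notes. The authors deposited 1 fractional signal for each gene symbol, which is neither counts nor TPM by its column totals. Whether it is FPKM, and whether it is scaled to transcript length, is not stated. Levels of different genes were therefore not ranked, and the shares of summed signal weight each gene by its deposited value. All 13 mRNAs of mitochondrial DNA are listed at 0 in the deposited table, so a 0 need not mean a silent gene. Whole reads could not be recovered, so limma, planned for this unit, was used.

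Genes that reached 1 in 2 or more of the 6 libraries were kept (11486 of 19990). A model with 1 term per group was fitted to log2(value + 1) over all 6 libraries (3 residual degrees of freedom) with limma 3.58.1 in R 4.3.3 (eBayes, trend and robust), and p-values were Benjamini-Hochberg adjusted over all genes tested, with 0.05 as the threshold. Fold changes on this scale understate those of low genes. The script was tested on simulated data. Signs of the form ± are SDs of 2 libraries. Coordinates and transcript numbers are from GENCODE 29 (GRCh38, as hg38), to which all 39 members matched by symbol. Members and lists were chosen with earlier results of these data known, so no list is given a test. Of genes outside the 39, the text names those called in any comparison, some of the pair per list and comparison with the smallest p, TIMM13, and cell type markers; SLC2A14 was named after its values were seen. Alternatives covered the pseudocount, filter, scaling, variance model, weights, groups in the fit, replicate block and leaving out each library.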

Additional observations from a re-analysis of the deposited data

Results flagged for a closer look

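Each value here is a log2 difference of siRNA 1 minus siRNA 2. It was flagged because the effects of the 2 siRNAs against the same control differed by limma's test between them: SLC2A3 (−1.40), SLC16A3 (−2.53), ALDOC (−2.28), the glucose 6-phosphatase G6PC3 (2.18), WSB1 (−1.59), TMEM45A (−1.43) and CD14 (−1.34), a monocyte co-receptor of lipopolysaccharide signalling, which stood at 4.09 and 4.47 in control, 1.80 and 2.29 with siRNA 1, and 6.99 and 6.44 with siRNA 2. Their limma adjusted p were 0.0483, 0.0365, 0.0470, 0.0284, 0.0338, 0.0318 and 0.0420. SLC2A3, SLC16A3 and ALDOC were called in 3, 6 and 3 of 15 alternative settings, G6PC3 and WSB1 in 7 and 6 of 15, and TMEM45A and CD14 in 6 and 4 of 14. The highest limma adjusted p over them was 0.260, 0.206, 0.239, 0.160, 0.204, 0.190 and 0.241. As deposited, another 4 members had every library of one siRNA above and every library of the other below both controls. These were ENO1 (−1.10), ENO2 (−2.34), EPAS1 (0.65) and EGLN3 (1.03), whose difference between the siRNAs was not called (limma adjusted p = 0.135, 0.152, 0.142 and 0.0730). With equal column totals ENO2 lost this pattern. Of all genes, 36.8% had both siRNA 1 libraries above both controls and 31.1% below, and 33.7% and 25.9% with siRNA 2. The share of all genes on opposite sides was not counted, so this pattern is no result about the members as a set.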

How the results depend on the processing

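The 35 member changes with an unadjusted p under 0.05 kept their direction under every alternative that gave a value. Of the other 76, 7 changed sign with upper-quartile scaling and 8 with equal column totals, and 3 to 10 when 1 library was left out. The 42 changes of genes outside the members kept theirs too. Those scalings moved the median of all genes with siRNA 2 from 0.14 to −0.06. Members called changed as follows, from 0 with siRNA 1, 2 with siRNA 2 and 3 between the siRNAs. Library weights gave 11, 0 and 0, and fitting the compared groups alone 9, 0 and 0. With the replicate block, limma called 0 members and 0 genes in each comparison (2008, 2556 and 2436 genes at an unadjusted p under 0.05). Same-numbered replicates shared little (correlations of deviations 0.00136, −0.00332 and 0.0459). These values are taken over all genes tested, so they cannot show whether same-numbered libraries were prepared together. With siRNA 2, no filter gave 0 members, a mean of at least 5 gave 1 (PFKFB4 was then not tested), upper-quartile scaling 1 and equal totals 0. Between the siRNAs these gave 1, 1, 0 and 0, and a pseudocount of 0.1 gave 1. Leaving out 1 library gave 0 to 9, 0 to 19 and 0 to 20. Genes called were 187, 345 and 376. Upper-quartile scaling gave 31, 115 and 75, equal totals 26, 19 and 34, library weights 3001, 11 and 5, and the compared groups alone 2386, 0 and 0 (4395, 2111 and 1997 at an unadjusted p under 0.05). No filter gave 110 and 239 with siRNA 2 and between the siRNAs, and a mean of at least 5 gave 224 and 186. Leaving out 1 library gave 0 to 2374, 0 to 4663 and 0 to 4581. The cause was not tested, beyond fewer libraries or genes in a fit. Unknown depth limits what low values can show.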
